A study of Homo sapiens with 4 samples.

Results

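The genes described here are those of doublecortin and of the microtubule-associated proteins best known from neurons: DCX, DCLK1, DCLK2, MAP2, MAPT, MAP1A, MAP1B, MAP6, MAP7 and MAP7D2. They were picked by symbol, and all 10 stand among the 18375 genes of the table deposited for RD cells, a human rhabdomyosarcoma cell line without a PAX3 or PAX7 fusion gene. Poly(A)-enriched RNA was sequenced from 2 libraries of vincristine-resistant RD cells and 2 libraries of untreated parental RD cells, all labelled as wild type in genotype. Vincristine, a plant alkaloid, binds tubulin and keeps microtubules from assembling. Resistant cells were obtained by starting the drug at 1 to 1.5 nM, a dose that killed about 80 to 90% of the cells, and raising it in steps of 10 to 20% over 9 to 12 months, until the half-maximal inhibitory concentration was at least 100-fold higher. The labels do not say how many lines were selected, whether drug was present at harvest or whether the libraries of a group came from separate cultures. The p-values below thus reflect the spread among these 4 libraries alone, and that spread may be technical.

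Microtubule-associated proteins bind the lattice of alpha- and beta-tubulin and alter its stability, its bundling and the traffic of motors along it. Doublecortin binds between protofilaments and is required for the migration of newborn neurons, and the doublecortin-like kinases join the same kind of domain to a kinase domain. In neurons MAP2 marks dendrites, tau (the product of MAPT) is enriched in axons, the MAP1 proteins are large scaffolds of growing and mature neurites, MAP6 protects microtubules from cold, and the MAP7 family recruits kinesin-1. The 10 genes were proposed with the contrast between resistant and parental cells already known, so that contrast is given for them as a description, and no result rests on a test of it.

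DCX and MAP7D2, with the largest rise and the largest fall of the 10 genes, differed in the sequence upstream of their annotated starts. The genes whose sequence is printed below were picked with the contrast known, and no link between sequence and contrast was tested. RefSeq promoter windows on GRCh38.p14 were present for 8 of the 10 genes, not for MAPT or MAP6. The 250 bases upstream of the outermost RefSeq start are printed 5′ to 3′ on the strand of the gene for DCX and MAP2, both higher in resistant cells, and for MAP1B and MAP7D2, both lower. They lie at chrX:111412193-111412442 (minus strand, DCX), chr2:209579082-209579331 (plus strand, MAP2), chr5:72107225-72107474 (plus strand, MAP1B) and chrX:20116908-20117157 (minus strand, MAP7D2). Capitals mark each CG dinucleotide, the sequence at which cytosines of human DNA are methylated.
DCX: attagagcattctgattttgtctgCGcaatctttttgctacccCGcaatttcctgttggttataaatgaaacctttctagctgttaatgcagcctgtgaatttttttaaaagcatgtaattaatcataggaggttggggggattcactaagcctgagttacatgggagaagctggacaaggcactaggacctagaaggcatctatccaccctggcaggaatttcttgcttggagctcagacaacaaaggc
MAP2: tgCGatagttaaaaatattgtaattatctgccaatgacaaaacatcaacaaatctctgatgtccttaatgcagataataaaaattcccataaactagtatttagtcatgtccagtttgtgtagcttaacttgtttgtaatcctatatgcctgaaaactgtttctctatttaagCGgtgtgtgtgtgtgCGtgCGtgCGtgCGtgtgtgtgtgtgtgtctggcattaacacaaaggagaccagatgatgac
MAP1B: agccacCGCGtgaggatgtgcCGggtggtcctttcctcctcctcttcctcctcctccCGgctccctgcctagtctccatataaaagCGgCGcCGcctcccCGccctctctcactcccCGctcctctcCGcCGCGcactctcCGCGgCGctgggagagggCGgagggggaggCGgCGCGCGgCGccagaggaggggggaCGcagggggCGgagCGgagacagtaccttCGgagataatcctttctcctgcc
MAP7D2: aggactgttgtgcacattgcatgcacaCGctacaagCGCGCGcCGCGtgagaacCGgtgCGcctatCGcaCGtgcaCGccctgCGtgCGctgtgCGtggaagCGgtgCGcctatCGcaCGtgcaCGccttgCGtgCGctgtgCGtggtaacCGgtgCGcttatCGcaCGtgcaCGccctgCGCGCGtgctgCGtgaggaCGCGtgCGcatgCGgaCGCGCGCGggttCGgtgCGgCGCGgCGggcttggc

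The DCX window held 2 CG dinucleotides and that of MAP7D2 held 44, against a median of 10 over the outermost windows of 27305 genes. A count as high as that of MAP7D2 was found for 209 genes (0.765%), and 23.6% of genes had as few as DCX or fewer. MAP2 had 6, MAP1B and DCLK2 had 25 each, MAP1A had 18 and MAP7 had 33. DCLK1 had 2 at its outermost start and 22 at another annotated start, so its count depended on the start chosen. The MAP7 and MAP1A windows likewise ranged from 1 to 33 and from 9 to 18 over their starts, those of MAP7D2 from 28 to 44 and those of MAP1B from 11 to 25, while the 3 DCX windows held 1 to 3. GENCODE draws several of these genes from a start farther upstream, so that all 250 bases of the MAP2 and MAP7 windows, 241 of MAP1B, 237 of DCX, 171 of DCLK2 and 10 of MAP7D2 lie inside the GENCODE gene. The MAP2 window lies far inside its GENCODE gene, which starts at 209424058. Distances to MAP2 neighbours below were measured from that GENCODE start. Which start these cells used was not measured. The RefSeq windows covered 62.6% of the tested genes. Whether CG content goes with the difference between the groups over those genes was not tested.

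Motifs were searched on both strands of the same windows. The MAP7D2 window held 3 copies of CACGTG, the palindromic E-box core, as did 23 genes (0.0842%) in all, and 6.46% of genes held at least 1 copy. Each copy lay within the same stretch of 17 bases, tatcgcacgtgcacgcc, repeated 3 times at intervals of 48 and 49 bases. The window of the other MAP7D2 start held 0 copies of CACGTG. The CACGTG matches are also matches to CANNTG, which 62.2% of genes held. DCX held 1 TATAAA, found in 11.2% of genes, and no GGGCGG or CANNTG. MAP1B held 1 TATAAA and 3 GGGCGG, the GC box, which 42.2% of genes held. These matches describe letters and no binding was measured.

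**Figure D1:**
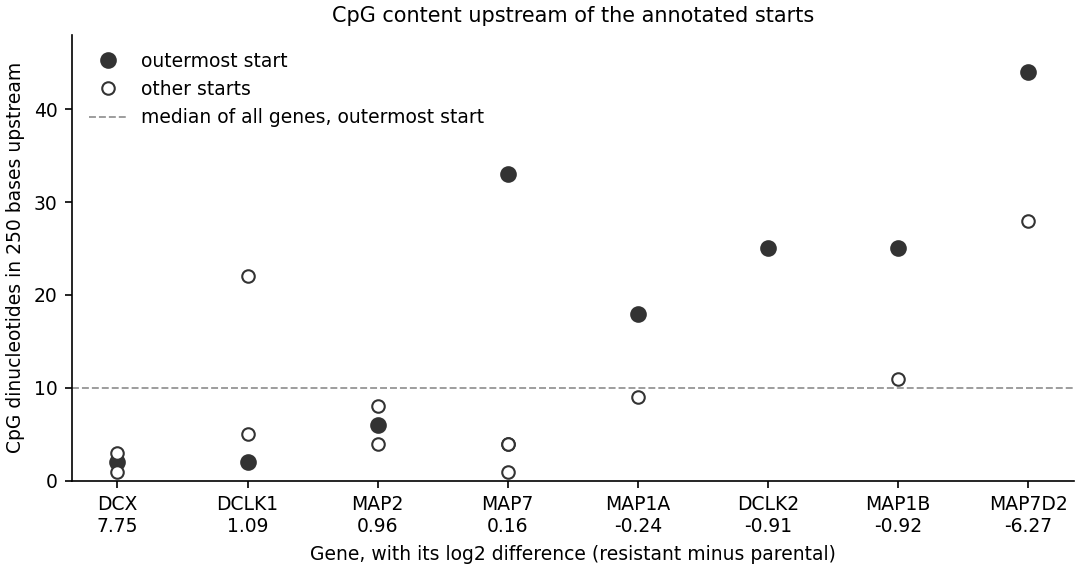
CG dinucleotides (vertical axis, count in 250 bases upstream of a RefSeq start) for the 8 genes with a promoter window, ordered from the highest to the lowest log2 difference of resistant minus parental cells, which is printed under each name. Filled circles are outermost starts, open circles other starts, and the dashed line is the median of all genes at 10; among outermost starts MAP7D2 stands highest at 44 and DCX and DCLK1 lowest at 2.

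Among the doublecortin family, DCX (ENSG00000077279, GRCh38 chromosome X, 111293779 to 111412429, minus strand) was nearly absent from the parental libraries. Its normalized counts, reads divided by a size factor per library, were 548 and 506 in the resistant libraries and 0 and 4.97 in the parental libraries. These values stood for 506 and 530 reads in resistant cells and for 0 and 5 reads in parental cells, so the groups lay far apart. The means were 527 ± 29.4 in resistant and 2.49 ± 3.51 in parental cells (SD, n = 2 each), and the read ratio was 214 (exact 95% binomial interval 91.6 to 662, counting error only). On the log2 scale with a pseudocount of 1 the difference, resistant minus parental, was 7.75 (SE 0.45). Each SE of a log2 difference, here and below, is limma's, with the variance of a gene drawn toward that of genes of similar level. It can thus be smaller or larger than the spread of the gene's own libraries. For DCX it is smaller, since the pooled SD of its log2 values was 1.29. Over pairs of 1 resistant and 1 parental library the DCX difference ran from 6.41 to 9.10. The scarce parental reads decided its size, since it was 6.46 without parental replicate 1, 9.04 without parental replicate 2 and 6.23 with a pseudocount of 5. With 0 reads in 1 library, up to 3 reads, or 2.90 normalized counts, would be within counting error there. In bulk RNA, more cells with DCX RNA and more DCX RNA per cell cannot be told apart.

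DCLK1 (ENSG00000133083, chromosome 13, 35768652 to 36131306, minus strand), a kinase with doublecortin domains, was also higher in resistant cells. Its normalized counts were 357 and 345 in resistant libraries and 175 and 153 in parental libraries, without overlap. The means of 351 ± 8.85 and 164 ± 15.5 (SD, n = 2 each) gave a log2 difference of 1.09 (SE 0.11). Its closest relative DCLK2 (chromosome 4, 150078274 to 150257457, plus strand) went the other way. DCLK2 had 187 and 185 normalized counts in resistant libraries, against 341 and 361 in parental libraries. That was a log2 difference of -0.91 (SE 0.11), again without overlap.

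The 3 doublecortin family genes thus differed in proportion between the groups. Per exonic kilobase and 1000000 recovered reads, a scale on which genes of different length can be compared, DCX was at 0.843 and 0.772 in resistant libraries and at 0 and 0.00745 in parental libraries. DCX made up 45.0 and 43.6% of the summed length-scaled level of the family in the resistant libraries, and 0 and 0.544% in the parental libraries. The sum itself was 1.87 and 1.77 in resistant libraries and 1.32 and 1.37 in parental libraries. In normalized counts, not scaled by length, it was 1092 and 1036 in resistant libraries and 516 and 519 in parental libraries, so the size of the contrast in the sum depended on the scale.

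MAP2 (chromosome 2, 209424058 to 209734118, plus strand), the dendritic protein, combined a high level with a clear difference. Its normalized counts were 18649.8 and 17788 in resistant libraries and 9405 and 9375 in parental libraries, so the lowest resistant value was far above the highest parental one. The means were 18219 ± 609 and 9390.0 ± 21.5 (SD, n = 2 each), a log2 difference of 0.96 (SE 0.03). MAPT (chromosome 17, 45894382 to 46028334, plus strand), which encodes tau, differed in the opposite direction. It had 133 and 134 normalized counts in resistant libraries, against 323 and 305 in parental libraries. The log2 difference of MAPT was -1.23 (SE 0.12). Of its exonic bases, 75 (0.503%) overlap MAPT-AS1 on the opposite strand, and the sources used here do not say whether reads were counted by strand.

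The MAP1 scaffolds were both lower in resistant cells, by unequal amounts. MAP1B (chromosome 5, 72107234 to 72209570, plus strand), known from growing axons, had 7356 and 6973 normalized counts in resistant libraries, against 13635 and 13552 in parental libraries. The means were 7164 ± 271 and 13594 ± 58.6 (SD, n = 2 each), and the log2 difference was -0.92 (SE 0.03). MAP1A (chromosome 15, 43510958 to 43531620, plus strand), the form typical of mature neurons, had 18479.9 and 17935 normalized counts in resistant libraries, against 21635 and 21241 in parental libraries. Its log2 difference of -0.24 (SE 0.03) was small, although the 4 libraries still separated by group.

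MAP7D2 (chromosome X, 20006713 to 20116917, minus strand), a MAP7 family member found mainly in brain, was the counterpart of DCX. It had 17.3 and 17.2 normalized counts in resistant libraries, against 1455 and 1353 in parental libraries. These stood for 16 and 18 reads in resistant cells and 1505 and 1361 reads in parental cells. The log2 difference was -6.27 (SE 0.13), and the parental level was 81.5 times the resistant one by reads (exact 95% binomial interval 58.2 to 118, counting error only). MAP7 itself (chromosome 6, 136342281 to 136550819, minus strand) had few reads and overlapping groups, at 14.1 and 18.1 normalized counts in resistant libraries and 14.5 and 13.9 in parental libraries. The read ratio of MAP7 was 1.14 (interval 0.669 to 1.96). Of its exonic bases, 159 (2.92%) overlap the opposite-strand gene AL024508.2. Together MAP7 and MAP7D2 summed to 31.4 and 35.3 normalized counts in resistant libraries and to 1470 and 1367 in parental libraries.

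MAP6 (chromosome 11, 75586918 to 75669120, minus strand) was also close to the lower limit of the table. It had 13.0 and 22.9 normalized counts in resistant libraries and 10.6 and 7.95 in parental libraries, from 12 and 24 reads and from 11 and 8 reads. The read ratio was 1.96 (interval 1.10 to 3.62), and the resistant libraries differed from each other by more than resistant replicate 1 differed from either parental library. Its log2 difference of 0.84 (SE 0.44) became 0.45 without resistant replicate 2 and 1.23 without resistant replicate 1.

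**Figure D2:**
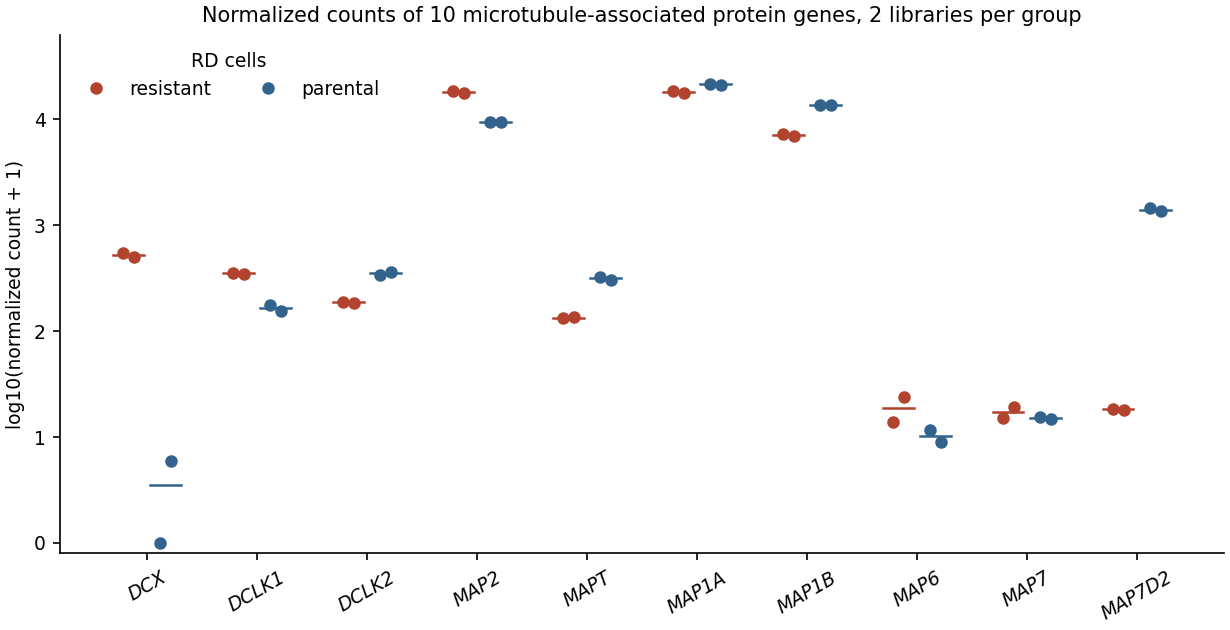
Normalized counts of the 10 genes on a log10 scale after adding 1 (vertical axis), with 2 resistant and 2 parental libraries per gene as points and group means on the log scale as bars. DCX (548 and 506 in resistant, 0 and 4.97 in parental libraries) and MAP7D2 (17.3 and 17.2 in resistant, 1455 and 1353 in parental libraries) stand apart in opposite directions, and MAP7 alone has groups that overlap.

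By the test used for the whole table (limma, adjusted p below 0.05), 3 of the 10 genes were called higher and 5 lower, where 32.7% of the 18330 tested genes were called higher and 34.2% lower (66.9% in either direction). MAP6 and MAP7 were not called. The libraries of the groups did not overlap for 9 of the 10, 4 higher and 5 lower, against 82.1% of the tested genes, 41.0% higher and 41.1% lower. As the genes were proposed with this contrast known, the counts describe them and carry no weight of their own. Their median log2 difference was -0.04, against 0.00 for all tested genes, while the median size of the difference regardless of sign was 0.94, against 0.36. Both medians likewise describe genes proposed with the contrast known and carry no weight of their own.

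The summed level of the 10 genes was close between the groups, and MAP2, MAP1A and MAP1B made up 97.2% of it in both resistant libraries and 95.1 and 95.3% in the parental libraries, so it says little of the other 7. Together the 10 genes had 45755 and 43924 normalized counts in resistant libraries and 46995 and 46367 in parental libraries, or 0.0718 and 0.0684% of the recovered reads against 0.0718 and 0.0709%. Within the sum, MAP2 made up 40.8 and 40.5% of the counts in resistant libraries, against 20.0 and 20.2% in parental libraries. MAP1B made up 16.1 and 15.9% in resistant libraries and 29.01 and 29.2% in parental libraries. The MAP2 to MAP1B ratio of normalized counts was thus 2.54 and 2.55 in resistant libraries, against 0.690 and 0.692 in parental libraries, with replicates nearly identical in both groups.

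Levels per exonic kilobase and 1000000 recovered reads gave the order of the genes. In resistant cells it ran MAP1A (mean level 26.8), MAP2 (24.6), MAP1B (8.87), DCX (0.807), DCLK2 (0.632), DCLK1 (0.382), MAPT (0.140), MAP7D2 (0.0616), MAP7 (0.0462) and MAP6 (0.0436). Only MAP7 and MAP6 overlapped as neighbours in that order. In parental cells it ran MAP1A (30.8), MAP1B (16.4), MAP2 (12.4), MAP7D2 (4.90), DCLK2 (1.16), MAPT (0.322), DCLK1 (0.174), MAP7 (0.0399), MAP6 (0.0221) and DCX (0.00372), with no overlap between neighbours. DCX thus followed the 3 abundant genes in resistant cells and came last in parental cells, where MAP7D2 followed the same 3. Dividing by the longest annotated transcript instead put MAP2 (29.3) above MAP1A (27.0) in resistant cells, DCLK1 (0.685) level with DCLK2 (0.683), and MAP6 (0.0648) above MAP7 (0.0555), so the order within those 3 pairs depended on the length used.

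**Figure D3:**
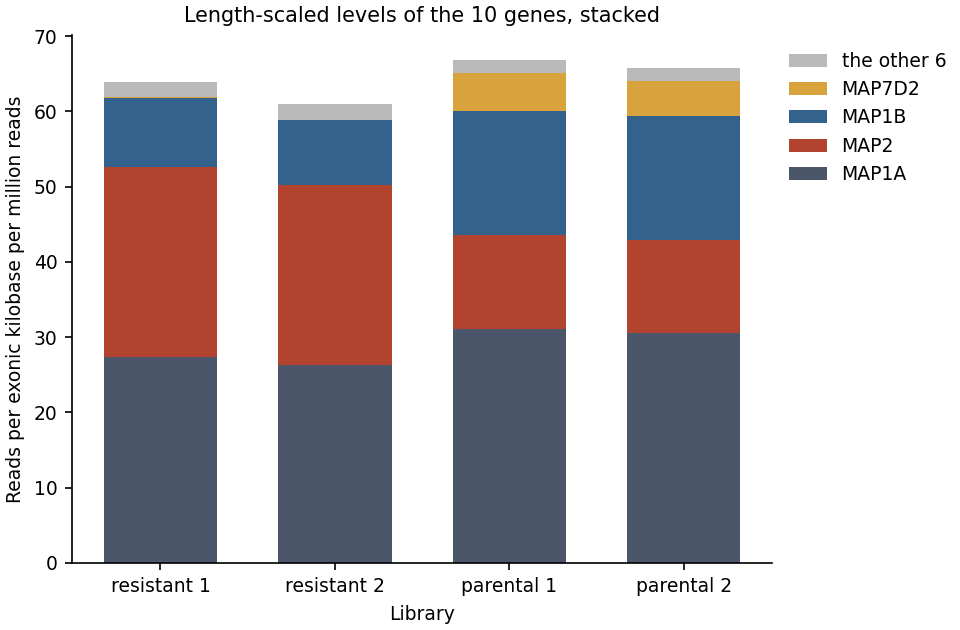
Reads per exonic kilobase and 1000000 recovered reads (vertical axis), stacked over the 10 genes for each of the 4 libraries. The stacks reach 63.9 and 60.9 in resistant and 66.8 and 65.8 in parental libraries, with a wider MAP2 band, a narrower MAP1B band and almost no MAP7D2 band in the resistant libraries.

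Genes around DCX on the X chromosome were examined because the choice of the 10 genes did not use them. Of 8 tested genes that start within 1 Mb of the DCX start, 6 rose in resistant cells, 1 fell and 1 was not called, with a median log2 difference of 1.41. Over all tested genes, 32.7% were called higher and 34.2% lower. Among the genes that rose, SERTM2, CAPN6 and CHRDL1 reached 10 normalized counts only in the resistant libraries. They could thus be tested only as higher genes, so their calls and p-values carry no weight of their own. The same genes stand in the counts over 2 Mb below. SERTM2, which starts 99.2 kb upstream, had 143 ± 6.96 normalized counts in resistant and 0.980 ± 0.0193 in parental cells (SD, n = 2 each; limma adjusted p = 6.33e-14). Its 2 parental reads gave a ratio of 146 (exact 95% binomial interval 40.0 to 1211). CAPN6, a calpain without protease activity that is known to stabilize microtubules, starts 142 kb downstream and had 36.0 ± 0.398 normalized counts in resistant and 0.994 ± 1.41 in parental cells (limma adjusted p = 1.97e-07). It also had 2 parental reads, a ratio of 36.7 (interval 9.80 to 309).

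Farther out, and chosen after their values were seen, the neuronal kinase PAK3 (468 kb downstream, log2 difference 2.00, SE 0.20) and the BMP antagonist CHRDL1 (617 kb downstream, 3.11, SE 0.47) also rose. So did AMOT, a regulator of the Hippo pathway, 1.43 Mb upstream (4.06, SE 0.07), and LHFPL1, 1.27 Mb upstream (4.68, SE 0.17). Between them and DCX, the widely expressed gene ALG13 had 1240 ± 1.55 normalized counts in resistant and 849 ± 9.10 in parental cells, a far smaller contrast. AMMECR1, 972 kb downstream, fell by 0.33 on the log2 scale. Over 2 Mb on either side, 9 of 14 genes rose and 2 fell, with a median of 0.70, and DCX exceeded that median by 7.06. Gene copy number was not measured.

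MAP7D2 lies on the other arm of the same chromosome, and genes within 1 Mb of it had smaller differences. Of its 7 tested neighbours within 1 Mb, 2 rose, 3 fell and 2 were not called, with a median log2 difference of 0.06. EIF1AX, which encodes a translation initiation factor and starts 24.9 kb away, had 8944 ± 295 normalized counts in resistant and 8192 ± 341 in parental cells (SD, n = 2 each). The largest changes there were those of MAP3K15 (log2 difference -1.67, SE 0.20) and the endocytic adaptor SH3KBP1 (-0.56, SE 0.03). Over 2 Mb on either side, 7 of 17 tested genes rose and 6 fell, with a median of 0.08. Over all tested genes the shares were 32.7% higher and 34.2% lower. Minus the median of the 2 Mb window, the log2 difference of MAP7D2 was -6.35. Genes farther than 1 Mb from MAP7D2 are not named here.

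Around MAP2, 5 of 7 neighbours within 1 Mb rose and none fell, led by UNC80, a subunit of the sodium leak channel NALCN (719 ± 77.3 normalized counts in resistant and 256 ± 17.1 in parental cells, SD, n = 2 each; limma adjusted p = 6.75e-14). LANCL1-AS1 was also among them (log2 difference 0.80, SE 0.27). Its call was lost with DESeq2 (adjusted p = 0.0881) and against a change above 1.2-fold (limma treat, adjusted p = 0.079). The LANCL1-AS1 difference was 0.51 without resistant replicate 2 and 0.57 without parental replicate 2. DCLK1 had 6 of 11 neighbours higher and none lower, among them SOHLH2 (1.93, SE 0.34) and SMAD9 (1.66, SE 0.20). Near MAP6, 8 of 23 rose and 5 fell, with WNT11 (1.68, SE 0.09) and GDPD5 (1.55, SE 0.08) in front. These counts stand beside 32.7% higher and 34.2% lower over all tested genes.

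Around the genes with lower levels in resistant cells, neighbours differed in direction. Their counts stand beside the 32.7% higher and 34.2% lower over all tested genes. MAP1B had 11 neighbours, of which 5 rose and none fell, and MAP1A had 28, of which 13 rose and 5 fell, including FRMD5 (log2 difference -3.22, SE 0.13) on the lower side and EPB42 (1.19, SE 0.37) on the higher. EPB42 did not pass with DESeq2 (adjusted p = 0.0649), and its difference was 0.88 without resistant replicate 2. MAPT had 31, with 6 higher and 8 lower, of which FMNL1 (-1.13, SE 0.11) and MAP3K14 (-0.995, SE 0.08) moved most. The 1 tested neighbour of DCLK2 was not called. MAP7, whose groups overlapped, had 7 neighbours with 2 higher and none lower. Near MAP1B the largest increases were ZNF366 (1.92, SE 0.41) and AC093278.2 (1.27, SE 0.42), and near MAP7 they were IL20RA (1.81, SE 0.55) and BCLAF1 (0.22, SE 0.03). Of these 4, AC093278.2 lost its call without resistant replicate 2 (limma adjusted p = 0.138) and IL20RA without parental replicate 1 (0.182). Both also failed with DESeq2 (adjusted p = 0.0777 and 0.0846), and BCLAF1 failed with the dispersion fixed at 0.01 in edgeR (adjusted p = 0.206) and against a change above 1.2-fold.

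**Figure D4:**
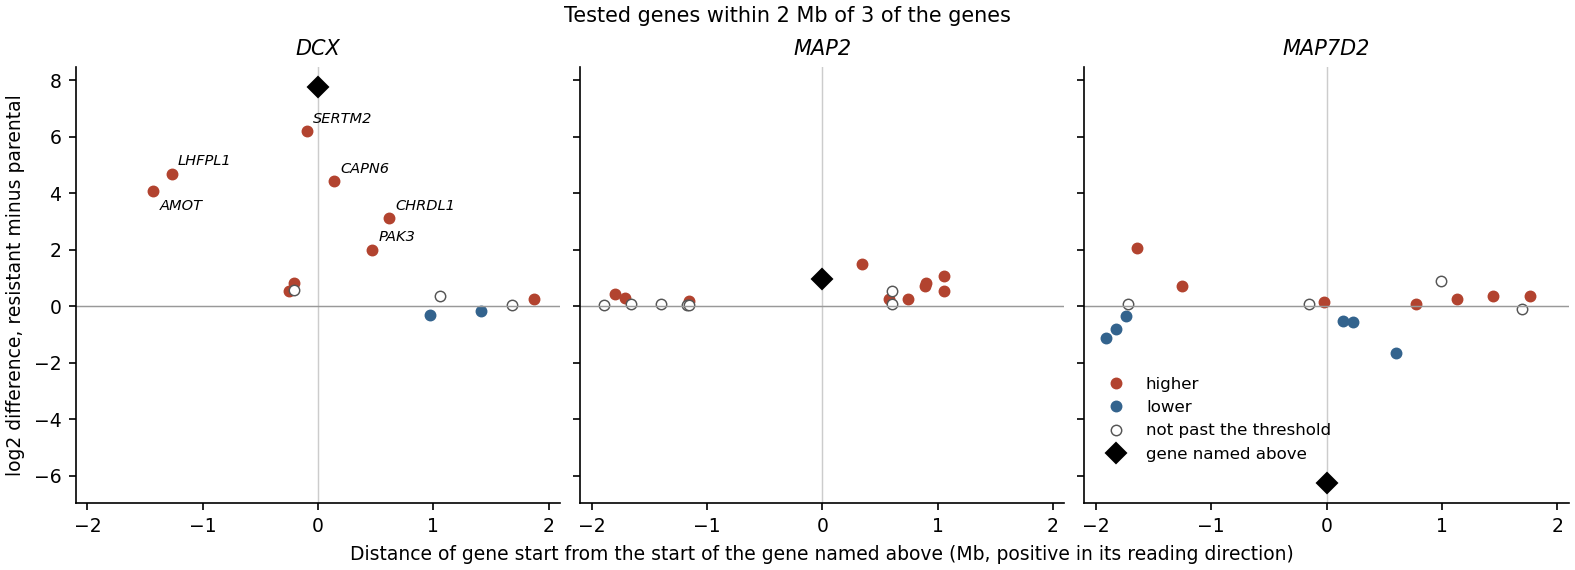
Log2 difference, resistant minus parental (vertical axis), of tested genes by the distance of their start from that of DCX, MAP2 or MAP7D2 (horizontal axis, Mb, positive in the reading direction of the named gene). Red and blue points passed the limma test as higher and lower, open points did not, and the black diamond is the named gene, without a test; DCX sits among other high points, while MAP7D2 is alone near the foot of its panel.

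Genes with the pattern most like that of DCX were found by Euclidean distance between the log2 values of the 4 libraries, centred on each gene. PDZRN4, a PDZ and RING finger protein gene, came first at a distance of 1.55, with 174 and 186 normalized counts in resistant libraries and 0 and 4.97 in parental libraries. The chemokine receptor gene CXCR4 (distance 2.19) had 6622 and 6363 in resistant libraries and 77.3 and 119 in parental libraries. The contactin gene CNTN6 (distance 2.29) had 175 and 163 in resistant libraries and 0.967 and 5.96 in parental libraries. Of the 3, PDZRN4 alone shared with DCX both the absence of reads in parental replicate 1 and the 5 reads in parental replicate 2.

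The nearest matches to MAP7D2 lay at smaller distances. For THNSL2 and GAGE1, which had no resistant reads, the distance depends on the pseudocount of 1 and on the parental level. THNSL2 (distance 0.0964) was at 0 in both resistant libraries and at 73.5 and 74.6 in the parental ones. The protocadherin gene PCDH10 (distance 0.142) had 22.7 and 22.9 normalized counts in resistant libraries, against 1695 and 1761 in parental libraries, close to MAP7D2 in level as well. GAGE1 (distance 0.190) was at 0 in resistant libraries and at 67.7 and 73.6 in parental libraries, and its value is uncertain because it belongs to a cluster of nearly identical genes.

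Among other genes listed for a related function or name, more fell than rose. All lists were drawn up with earlier results of these data known. Their counts and medians therefore describe the listed genes and carry no weight of their own. Of 90 genes in 6 lists, 77 were measured, of which 18 rose (23.4%), 47 fell (61.0%) and 12 were not called by limma, beside 32.7% higher and 34.2% lower over all tested genes. Their median log2 difference was -0.22, against 0.00 for all tested genes. When a change above 1.2-fold was required, 9 rose and 28 fell, and with an assumed dispersion of 0.01 the counts were 10 and 28.

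Of 7 further genes with doublecortin domains, 2 were measured and the other 5 were not analysed here. DCDC2, a ciliary protein gene, had 40.1 ± 1.40 normalized counts in resistant and 19.6 ± 3.16 in parental cells (SD, n = 2 each; limma adjusted p = 0.00436), but did not pass with DESeq2 (adjusted p = 0.0611). RP1L1 had 11.7 ± 0.317 in resistant and 9.79 ± 1.19 in parental cells and did not pass (limma adjusted p = 0.663). A further list holds paralogs of the MAP genes and genes that share only the MAP name. Of its 11 measured genes, 2 rose, 5 fell and 4 were not called, beside 32.7% higher and 34.2% lower over all tested genes. The light chain 3 genes of autophagy, which carry the MAP1 name, included MAP1LC3C (log2 difference -0.99, SE 0.13) and MAP1LC3A (-0.61, SE 0.06), both lower. MAP1LC3B, the most abundant of them, had 7723 ± 181 normalized counts in resistant and 7764 ± 199 in parental cells and did not pass (limma adjusted p = 0.855). MAP6D1, which shares domains with MAP6, also fell (-0.70, SE 0.11).

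Paralogs of MAP7D2 and MAP2, named after their values were seen, had smaller differences than those genes themselves. MAP7D3 rose, at 2451 ± 7.02 normalized counts in resistant and 1711 ± 64.2 in parental cells, and MAP7D1 was lower at 20573 ± 1115 in resistant and 24027 ± 271 in parental cells (SD, n = 2 each). MAP4, the MAP2 and tau relative of non-neuronal cells, had 28501 ± 515 in resistant and 29125 ± 234 in parental cells and did not pass (limma adjusted p = 0.33).

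Other regulators of microtubules fell in 12 of 17 measured cases and rose in 3. The counts here stand beside 34.2% lower and 32.7% higher over all tested genes. TPPP3, of the tubulin polymerization promoting family, had 3019 ± 37.3 normalized counts in resistant and 6467 ± 118 in parental cells, a log2 difference of -1.10 (SE 0.04). The collapsin response mediators differed in direction, with CRMP1 lower (-0.90, SE 0.03) and DPYSL3 higher (1.01, SE 0.11). Of 23 measured kinases and phosphatases that act on these proteins, 5 rose and 15 fell. MARK1, which phosphorylates MAPs so that they leave microtubules, rose (1.92, SE 0.13), with 344 ± 4.66 normalized counts in resistant and 90.8 ± 13.6 in parental cells. BRSK1, a neuronal polarity kinase (-1.56, SE 0.06), and PPP1R9A, a phosphatase-targeting subunit (-1.92, SE 0.06), fell.

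Genes known from disorders of neuronal migration, the setting in which DCX was identified, divided into 7 higher and 12 lower among 19 measured. That was 36.8% higher and 63.2% lower, beside 32.7 and 34.2% over all tested genes. When a change above 1.2-fold was required, 1 was higher and 8 were lower. The beta-tubulin gene TUBB2B (-0.93, SE 0.04) and the kinesin heavy chain gene KIF5C (-0.99, SE 0.04) fell. Kinesin-1, the motor that MAP7 proteins recruit, had 4 of 6 measured subunit genes lower and none higher. KIF5B, its general heavy chain gene, had 11739 ± 438 normalized counts in resistant and 19971 ± 186 in parental cells, and KLC2, a light chain gene, fell by 0.92 on the log2 scale (SE 0.05), beside KIF5C, which stands in both lists.

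**Figure D5:**
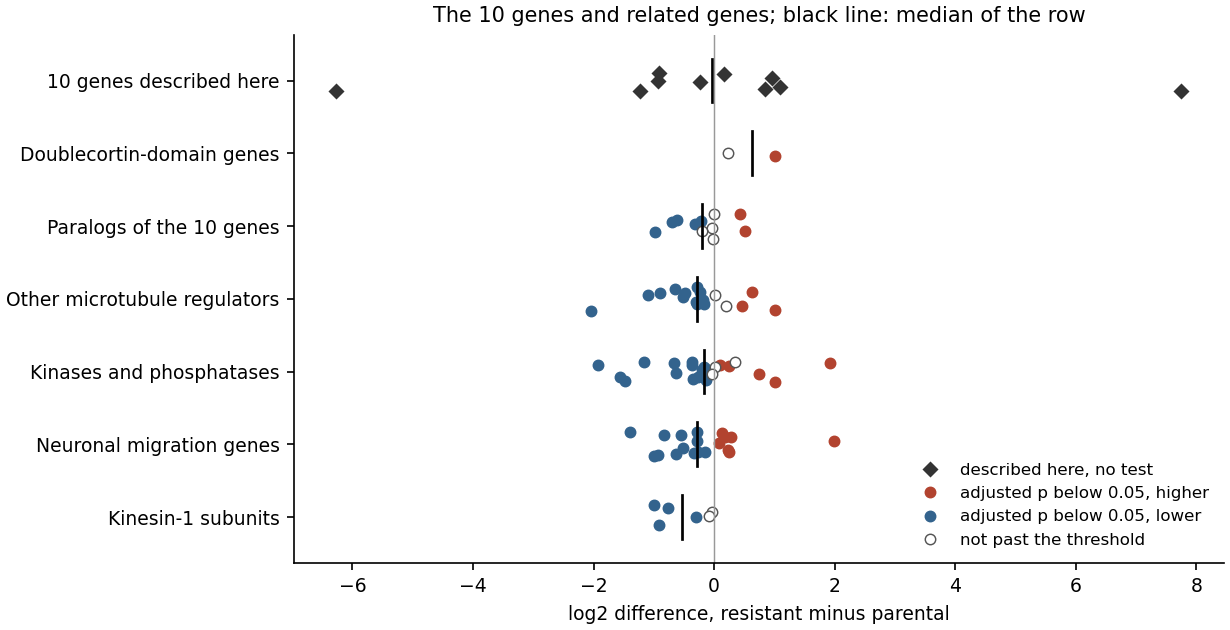
Log2 difference, resistant minus parental (horizontal axis), for the 10 genes (black diamonds, no test) and 6 lists of related genes, where red and blue points passed the limma test and open points did not. Black bars are row medians: -0.04 for the 10 genes and below 0 in every list except the 2 measured doublecortin-domain genes. The row of paralogs also holds genes that share only the MAP name.

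The labelled cell type was checked with its markers. Of 16 measured skeletal muscle markers 14 rose and none fell, with sums of 253735 to 260441 normalized counts in resistant and 139456 to 139531 in parental cells. The counts of markers here stand beside 32.7% higher and 34.2% lower over all tested genes. CHRNA1, the acetylcholine receptor subunit and most abundant of them (56412 ± 86.2 in resistant, 37826 ± 470 in parental cells), rose with PAX7 (log2 difference 3.58), ACTC1 (1.49) and DES (1.46). Of 16 measured neuronal markers 6 rose and 8 fell, with a median of -0.24 and a mean of 0.16. NEFH (3.37), NEFM (2.30) and SNAP25 (2.15) rose. The 8 that fell included NEUROD1 (-2.87), ELAVL2 (-0.92), SYP (-0.80) and L1CAM (-0.77), named after their values were seen. NES, at 92149 ± 382 in resistant and 84172 ± 1061 in parental cells, was 0.13 higher. Its call was lost with an edgeR dispersion of 0.01 (adjusted p = 0.487) and against a change above 1.2-fold. Without parental replicate 2 the NES difference was 0.12. Sums of the neuronal markers were 162527 to 163837 in resistant and 147748 to 149437 in parental cells. NES alone made up most of these sums, so they say little of the other neuronal markers.

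Markers of other cells were fewer, and their counts also stand beside 32.7% higher and 34.2% lower over all tested genes. Of 10 glial genes 4 were measured and 2 rose, among them the myelin gene MBP (1.09), with sums of 788 to 789 in resistant and 402 to 420 in parental cells. Of 6 endothelial genes 2 were measured, TEK (3.10, higher) and CLDN5 (-1.24, lower), with sums of 1960 to 1981 in resistant and 778 to 857 in parental cells. Of 6 immune genes 2 were measured, CD68 (-1.52, lower) and LYZ (1.27, higher). Their sums were 28.6 to 35.7 in resistant and 29.004 to 36.8 in parental cells. LYZ did not pass with DESeq2 (adjusted p = 0.114). Its difference was 1.04 without resistant replicate 1 and 0.61 without parental replicate 1. None of the measured genes in these 5 marker lists was at 0 in any library. Their part in the values of the 10 genes was not tested.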

How the data were processed

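Poly(A)-enriched RNA of 2 resistant and 2 parental RD libraries was measured. The submitters' processing notes name GRCh38, bcl2fastq 2.17, STAR 2.5.2b, Subread 1.5.2 with featureCounts, and DESeq2. The annotation and strand setting are not stated there. The deposited columns are a signal, normalized counts that equal gene counts divided by 1 size factor per library (0.924 and 1.05 in resistant, 1.03 and 1.01 in parental libraries), as the values show. All were whole multiples of 1 step within 0.01, which gave back 58861281 and 67270948 reads in resistant and 67690557 and 65818879 in parental libraries. The smallest mean of a gene in the table was 9.98, so weaker genes are not analysed here. The authors' log2 fold changes and p-values, per the file headers, were used only as a check: the log2 differences of the 10 genes computed here lay within 0.113 of those in the authors' deposited table.

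Genes with at least 10 in at least 2 libraries (18330) were tested with limma 3.58.1 (trend) on log2 of the value plus 1, by group, with Benjamini-Hochberg adjustment and a threshold of 0.05, in R 4.3.3. A fold on this scale can understate the change of weak genes. A gene that reached 10 only in the libraries of 1 group could be tested only as higher in that group. The fit was checked on simulated counts. Alternatives on the recovered reads used edgeR 4.0.16 and DESeq2 1.42.0. Gene positions, exonic lengths and overlaps came from GENCODE 29, and promoter windows from RefSeq (GRCh38.p14). Read ratios carry exact 95% binomial intervals, which cover counting error alone.

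The 10 genes and all lists were chosen with earlier results of these data known. Named beside them, by rule, were up to 3 called genes per list with the largest change and at least 100 on average in the higher group, all genes of lists with 3 or fewer measured, the most abundant gene of each list of another cell type, 3 most similar genes for DCX and MAP7D2, and up to 2 called neighbours with the largest change within 1 Mb. A few genes named by this rule are not reported here. Of the 10 genes, MAPT and MAP7 share exonic bases with another annotated gene and the other 8 do not.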

Additional observations from a re-analysis of the deposited data

How the results depend on the processing

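Of 110 differences of the 10 genes recomputed under alternatives that can move them (pseudocount, scaling, tool and a library left out), 109 kept their sign, the exception being MAP7 (-0.01 without resistant replicate 2). Against a change above 1.2-fold (limma treat), 3380 genes were called higher and 3414 lower over the table, against 6001 and 6270, and 9 and 28 of the related genes, against 18 and 47. With an edgeR dispersion of 0.01, assumed for independent cultures and added after the data were seen, 4063 were higher and 3880 lower, and 10 and 28 of the related genes. The estimated common dispersion was 0.000558, a coefficient of variation of 2.36%, so that small differences passed the test. Leaving out 1 library gave 5298 to 5861 higher and 5483 to 6331 lower genes, and 15 to 18 and 46 to 50 related genes. Replicate numbers share only a number (correlation of deviations -0.00); with the replicate block, 5926 and 6218 genes and 17 and 47 related genes were called. Scaling to the same total moved the median of all genes to 0.04. Of 709 values of 48 named genes under the alternatives, 20 no longer passed and none reversed. DCX was at 8.32 with a pseudocount of 0.5. Low reads limit DCX in parental cells, MAP7D2 in resistant cells, and MAP6 and MAP7 in both.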
